A study of Zea mays with 8 samples.

Results

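The genes described here were the maize transcripts that stood high in the leaf both with and without the fungus. They were chosen by their measured level: a gene was taken where its mean reached 500 FPKM (sequenced fragments for each kilobase of a transcript, relative to all mapped fragments of the library) over the 4 control libraries and also over the 4 SLB libraries. This left 65 of the 44135 genes in the table, or 0.147%. Since these levels chose the genes, their levels, fold changes, ranks and shares are a description and carry no test. The libraries came from maize (Zea mays, Golden Queen), from leaf 4 of plants aged 14 d, at stage V-3, when that leaf had emerged and was not yet fully expanded. In the SLB group leaves received a spore suspension labelled SLB, and in the control group 0.1% Tween 20 in water; both were sampled at 24 h. SLB stands for southern leaf blight, a disease of maize leaves caused by the fungus Cochliobolus heterostrophus. Both groups shared the cultivar, age, leaf and sampling time. The labels do not say whether a library came from 1 plant or several. The spread between libraries may be technical or between plants, and these cannot be told apart here. The question that the comparison answers here is which genes stayed among the most abundant transcripts of the infected leaf, and which of them kept their place.

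A small number of genes supplies a large part of the messenger RNA of a leaf. In green leaves, these are typically genes for light harvesting, for the photosystems and for carbon fixation, beside genes for ribosomes and other parts of protein synthesis. Leaves attacked by a fungus often make less messenger RNA for photosynthesis and more for defence proteins and enzymes of defence metabolism. Which of the 65 genes encode such proteins is not known here. A search of RefSeq's maize gene table (assembly Zm-B73-REFERENCE-NAM-5.0) matched 0 of the 44135 identifiers, and the deposited files pair no identifier with a name. The label of the tissue could not be checked against marker genes for the same reason. Identifiers are printed for 4 of the genes, the first 2 that rose and the first 2 that fell, and the others are called by their rank. A rank is a gene's place in the order of FPKM within 1 library, with 1 for the highest value, and "control rank 3" or "SLB rank 3" is the place of a gene's group mean.

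The libraries differed in scale. Summed FPKM ran from 1415310 to 2118480 in controls and from 706734 to 755209 in SLB libraries, so the same FPKM value was a larger part of an SLB library. How deeply each library was sequenced is unknown, and no counting error can be given. Ranks and shares of a library's own sum do not move with a factor common to all its genes, and both are therefore given beside FPKM. As leaves are mixtures, fewer cells of a type and less RNA per cell cannot be told apart in any value below. Fungal transcripts were not analysed here.

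Few genes were abundant on both sides. At 500 FPKM or more stood 317 genes in controls and 149 in SLB libraries, so the 65 shared genes were 20.5% of the control list and 43.6% of the SLB list. The 252 genes at the cut-off in controls only had a median of 1004 FPKM there and 126 FPKM after SLB treatment. The 84 genes at the cut-off in SLB libraries only had medians of 753 FPKM there and 76.4 FPKM in controls. At the very top the lists did not meet. Of the 10 highest genes of controls and the 10 highest of SLB libraries, 0 were shared. Among the first 20 of each group 1 gene was shared, among the first 50 there were 10, and among the first 100 there were 25. Of the first 10 genes of controls, 7 still had a mean of at least 500 FPKM in SLB libraries. Of the first 10 of SLB libraries, 3 had reached that level in controls.

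**Figure D1:**
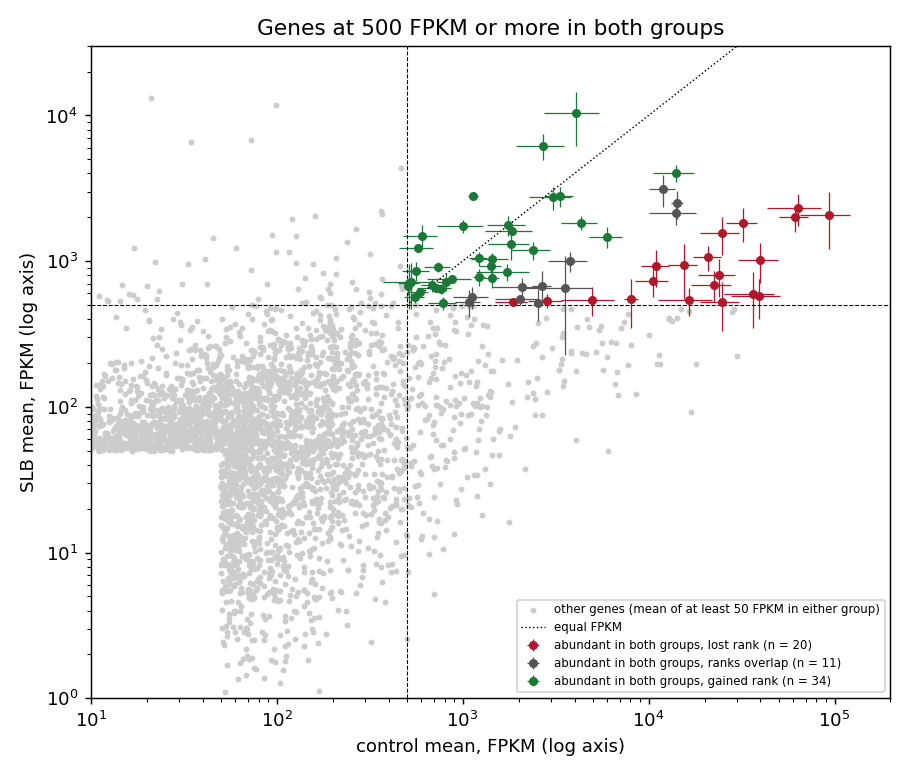
Mean FPKM in controls (horizontal, log axis) against mean FPKM in SLB libraries (vertical, log axis), with bars for the SD over 4 libraries; the axes start at 10 and 1 FPKM, the dashed lines mark 500 FPKM and the dotted line equal values. The 20 genes that lost rank (red) lie far to the right of the dotted line, and the 34 that gained rank (green) lie around it.

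Where a gene's 4 SLB ranks all lay below its 4 control ranks, it is said to have lost rank. Where all 4 lay above, it gained rank, and where the ranks of the groups overlapped, it kept its rank. By this measure 20 genes lost rank, 34 gained rank and 11 kept it. Among all 19407 genes tested, 31.2% lost rank and 42.3% gained rank. These shares are given as the background; nothing is read from the difference, since the choice of genes bounds their ranks. An equal cut-off admits 317 places in controls and 149 in SLB libraries, so the mean of a gene below control rank 149 had to move up for the gene to be included. All 14 genes below control rank 200 gained rank. With the rule set by place instead, among the 200 highest genes of both groups, 64 genes were found, of which 42.2% lost rank and 32.8% gained it. The balance of gains against losses thus moved with the form of the rule. Without SLB replicate 4, which stood apart from the other SLB libraries as described below, 63 genes passed, of which 27.0% lost rank and 58.7% gained it.

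Within the set, the largest falls were those of genes at the top of the control leaf. The rule fixes this in part, since a gene had to keep 500 FPKM in SLB libraries and a low gene had little room to fall. Control rank 1 was held by the same gene in all 4 control libraries, at 129370, 81130, 63067 and 100494 FPKM in replicates 1 to 4. In SLB replicates 1 to 4 this gene had 1967, 1192, 1900 and 3299 FPKM and stood at ranks 27, 47, 28 and 12. It made up 5.19% ± 0.765 (SD, n = 4) of the summed FPKM in controls and 0.288% ± 0.128 (SD, n = 4) in SLB libraries. It was the gene with the largest loss of rank by ratio, yet it stayed among the first 50 genes of every SLB library. The gene at control rank 2 had 86743, 59038, 38165 and 72060 FPKM in controls and 2143, 1845, 2108 and 3143 FPKM in SLB libraries, where its group mean ranked 19. It was the 1 gene found among the first 20 of both groups. The gene at control rank 3 had 76573, 61320, 50572 and 57034 FPKM in controls and 2332, 1427, 1988 and 2247 FPKM after treatment, with an SLB rank of 26. These 3 genes lay 27.7 to 44.8 times lower in SLB libraries by the ratio of means, with no overlap between the groups.

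Zm00001d045620 and Zm00001d003767 fell most of the 65 genes. Zm00001d045620, at control rank 5, had 54702, 41283, 27623 and 33620 FPKM in control replicates 1 to 4. After SLB treatment it had 711, 375, 490 and 742 FPKM, and its ranks were 100, 217, 167 and 84. The control mean was 67.8 times the SLB mean, and the log2 fold change of log2(FPKM + 1) was -6.09 (SE 0.30). Its share fell from 2.19% ± 0.348 to 0.0795% ± 0.0244 (SD, n = 4 each). Zm00001d003767, at control rank 6, had 49846, 36223, 23197 and 35660 FPKM in controls. In SLB libraries it had 624, 406, 419 and 940 FPKM at ranks 122, 191, 199 and 56, a ratio of 60.7 and a log2 fold change of -5.96 (SE 0.33). In both genes every SLB library lay below every control, and 2 SLB libraries lay below 500 FPKM. SLB replicate 4 was the highest of the 4 in both.

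Other genes of the control top followed. Control rank 4 was at 51599, 42350, 28796 and 37170 FPKM in controls and at 1299, 624, 906 and 1243 FPKM after treatment. Control rank 7 was at 38173, 36389, 28090 and 26171 FPKM against 1922, 1369, 1557 and 2478 FPKM, a ratio of means of 17.6 and the smallest among the first 7, and took SLB rank 30. Control rank 11 was at 31852, 22070, 18215 and 27261 FPKM against 503, 393, 397 and 805 FPKM, and dropped to SLB rank 140. Of the 17 genes among the first 25 of controls, 14 lost rank, 2 kept it and 1 gained. All 17 had lower FPKM, with ratios of control to SLB mean from 3.5 to 67.8 and a median of 29.7. Of all tested genes, 31.2% lost rank and 24.6% were called lower by limma, and nothing is read from the difference. The remaining genes of the first 25 missed the rule because their SLB means lay below 500 FPKM. A fall from the control top was thus not particular to the set. Over the 20 genes that lost rank, control mean ranks ran from 1 to 107 with a median of 12.9, and SLB mean ranks from 21.8 to 166 with a median of 91.6. Their ratios of control to SLB mean ran from 3.52 to 67.8, with a median of 23.7.

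Against these, 8 of the 65 genes rose in FPKM. Zm00001d011080 was the most abundant of the 65 in SLB libraries. In control replicates 1 to 4 it had 6055, 3724, 2970 and 3613 FPKM at ranks 53, 70, 69 and 73. In SLB replicates 1 to 4 it had 9370, 16503, 7627 and 7782 FPKM at ranks 3, 2, 4 and 2. The SLB mean was 2.52 times the control mean, with a log2 fold change of 1.31 (SE 0.32). Its share of summed FPKM was 0.227% ± 0.0395 in controls and 1.42% ± 0.576 in SLB libraries (SD, n = 4 each). Of the 65 genes it gained most rank by ratio, and the groups did not overlap in FPKM or rank. SLB replicate 2 stood above the other 3 SLB libraries.

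Zm00001d040697 came from far lower. It had 536, 600, 495 and 780 FPKM in control replicates 1 to 4, at ranks 338, 270, 275 and 227. After SLB treatment it had 1604, 1690, 1580 and 1089 FPKM, at ranks 38, 32, 35 and 49. The ratio was 2.47 and the log2 fold change 1.31 (SE 0.20). Both rises are relative to the deposited scale. With median-ratio scaling the log2 fold changes of Zm00001d011080 and Zm00001d040697 were 0.48 and 0.47 and did not pass the threshold, and with equal totals both were 2.58 and 2.57. Their gain in rank does not depend on these scalings.

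At control rank 86 stood a gene with 2761, 2725, 1732 and 3677 FPKM in controls and 7423, 6984, 5552 and 4711 FPKM in SLB libraries, where its mean ranked 8. Control rank 159 was held by a gene that was among the most even of the 65: it had 1204, 1040, 1147 and 1179 FPKM in controls and 2945, 2579, 2878 and 2783 FPKM after treatment. It moved from a mean rank of 157 ± 18.0 to 17.2 ± 1.26 (SD, n = 4 each). Another, at control rank 282, had 689, 503, 449 and 655 FPKM in controls and 1260, 1165, 1189 and 1314 FPKM in SLB libraries, at SLB rank 46. In each of these 3 genes the lowest SLB library lay above the highest control.

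Rank and FPKM often went opposite ways. Of the 34 genes that gained rank, 8 rose in FPKM, 10 fell and 16 did not pass the threshold. A clear case was the gene at control rank 24, which had 18005, 13612, 9505 and 15291 FPKM in controls and 4820, 4000, 3661 and 3659 FPKM in SLB libraries. Its FPKM fell by a ratio of 3.5, yet it moved from ranks 23, 23, 27 and 24 to ranks 9, 10, 11 and 9. Its share of summed FPKM was 0.787% ± 0.0822 in controls and 0.552% ± 0.0605 in SLB libraries (SD, n = 4 each). It climbed while holding less of the library: all 23 genes above it in controls had a lower mean than it in SLB libraries.

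For 16 genes the FPKM of the groups overlapped, with ratios of control to SLB mean from 0.724 to 1.38. All 16 gained rank, by 57.8 to 215 places of mean rank. The choice of genes fixes this in large part. At 500 FPKM or more stood 317 genes in controls and 149 in SLB libraries, so an equal FPKM at this height goes with a higher place. How many of all tested genes with overlapping FPKM gained rank was not computed. The gene at control rank 249 was the most level of the 16, at 712, 670, 578 and 771 FPKM in controls and 749, 707, 687 and 588 FPKM in SLB libraries. Its mean rank was 245 ± 12.9 in controls and 99.5 ± 17.7 in SLB libraries (SD, n = 4 each). At control rank 112, a gene had 2180, 1697, 1231 and 1950 FPKM against 1985, 1516, 1994 and 1546 FPKM, and reached SLB rank 32. These examples were chosen after their values were seen. Equal FPKM were a larger part of the smaller SLB sums: the 16 genes held 1.18% ± 0.202 of summed FPKM in controls and 2.55% ± 0.193 in SLB libraries (SD, n = 4 each). For these 16 genes, a level that looks steady in FPKM was thus a rise in share and in rank.

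Some of the first 8 genes of the set in SLB libraries were of this level kind. SLB rank 15 was held by a gene with 3520, 3945, 3335 and 2571 FPKM in controls and 3084, 2960, 2949 and 2152 FPKM after treatment. SLB rank 17 was held by a gene with 2398, 3747, 3735 and 2363 FPKM in controls and 3002, 2240, 3304 and 2430 FPKM after treatment. In both, the ranges of the groups overlapped, while every SLB rank lay above every control rank.

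**Figure D2:**
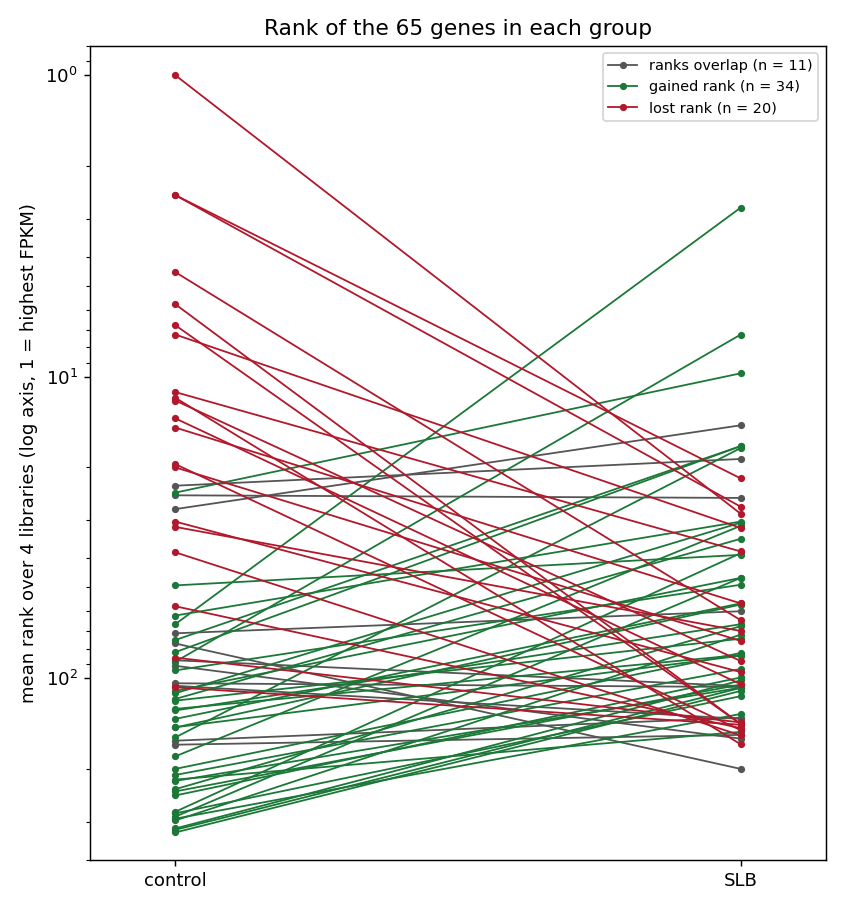
Mean rank over 4 libraries in each group, on a log axis with rank 1 at the top; each line is 1 of the 65 genes. The red lines of the 20 genes that lost rank fall from the top of controls, and the green lines of the 34 that gained rank rise mostly from below rank 50.

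Within the spread of the libraries 11 genes kept their rank, and all 11 had lower FPKM in SLB libraries, with no overlap. Of all tested genes, 31.2% lost rank, 42.3% gained rank and the rest kept it, and 22.2% had lower FPKM with no overlap. Nothing is read from the difference. At the cut-off stood 317 genes in controls and 149 in SLB libraries, so a kept rank at this height went with lower FPKM in part by the scale. Ratios of control to SLB mean for the 11 genes ran from 1.99 to 6.52, with a median of 3.83. The smallest move was that of the gene at control rank 25. It had 18741, 12639, 9290 and 15515 FPKM at ranks 21, 26, 29 and 23 in controls. In SLB libraries it had 1854, 2597, 1816 and 2349 FPKM at ranks 33, 18, 30 and 20. Its mean rank was 24.8 ± 3.50 and then 25.2 ± 7.37 (SD, n = 4 each), although its FPKM were 6.52 times lower. Control ranks 22 and 29 also stayed near the top. The first had 15577, 14146, 12933 and 14369 FPKM in controls and 2278, 2165, 2254 and 3315 FPKM after treatment. The second had 11342, 10065, 11931 and 14513 FPKM and then 3061, 2145, 3242 and 4039 FPKM.

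Further down, the gene at control rank 69 had 4654, 3339, 2728 and 4350 FPKM in controls and 1048, 795, 978 and 1175 FPKM in SLB libraries, with an SLB rank of 59. Control rank 102 had 2768, 2356, 1285 and 1907 FPKM and then 741, 758, 638 and 532 FPKM, with an SLB rank of 100. Control rank 161 had 1445, 1176, 937 and 941 FPKM against 700, 551, 551 and 463 FPKM. Control rank 167 had 1240, 1133, 851 and 1096 FPKM against 644, 473, 583 and 395 FPKM. In these 4 genes the mean rank changed by less than the range of the SLB ranks. A kept rank can also come from a wide spread. The gene at control rank 70, picked out after its values were seen, had 4814, 2849, 4605 and 1871 FPKM in controls and 288, 1001, 279 and 1048 FPKM in SLB libraries. Its SLB ranks were 343, 57, 347 and 53, and its coefficient of variation of 65.6% in SLB libraries was the highest of the 65 genes. In 2 more genes, also picked out after their values were seen, only SLB replicate 4 overlapped the control ranks. Control rank 90 had ranks of 85 to 96 in controls and of 156, 233, 153 and 93 in SLB libraries. Control rank 103 had ranks of 82 to 126 in controls and of 162, 132, 133 and 119 in SLB libraries.

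As a whole the 65 genes took up far less of the SLB libraries. They held 40.7%, 38.3%, 36.2% and 37.5% of the summed FPKM of control replicates 1 to 4. In SLB replicates 1 to 4 they held 12.4%, 12.3%, 11.7% and 13.2%. The group values were 38.2% ± 1.89 and 12.4% ± 0.599 (SD, n = 4 each), and the groups did not overlap. The share of the 20 genes that lost rank dropped by more than that of the whole set, and the share of those that gained rank went up. The classes were set by rank in these same libraries, which fixes these directions in part. The genes that lost rank held 31.1% ± 2.20 of summed FPKM in controls and 2.80% ± 0.757 in SLB libraries (SD, n = 4 each). Control ranks 1 to 3 alone held 12.2% ± 1.33 and then 0.880% ± 0.256. The 11 genes that kept their rank held 3.36% ± 0.241 in controls and 1.78% ± 0.278 in SLB libraries.

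The 34 genes that gained rank held more of the SLB libraries, at 3.73% ± 0.0990 in controls and 7.80% ± 0.629 in SLB libraries (SD, n = 4 each). Yet their own summed FPKM was 65896 ± 9098 in controls and 56920 ± 5453 in SLB libraries, with overlapping ranges of 54239 to 76181 and 50459 to 62475. Their larger share therefore came with no rise of their summed FPKM. The load was also spread more evenly. In controls 6 or 7 of the 65 genes made up 50% of the set's FPKM, and in SLB libraries 11 to 14 genes did. The highest of the 65 was 140 to 299 times the lowest in each control, and 19.7 to 46.3 times in each SLB library. By comparison, the 252 genes abundant in controls only held 36.4% ± 1.47 and then 5.85% ± 1.32. The 84 genes abundant in SLB libraries only held 0.608% ± 0.0695 and then 18.5% ± 2.81 (SD, n = 4 each). Both of these sets were chosen by the same levels, so the directions of their shares are a description. The single values that pass 500 FPKM were 54 to 63 of the 65 genes in each SLB library and 61 to 64 in each control.

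**Figure D3:**
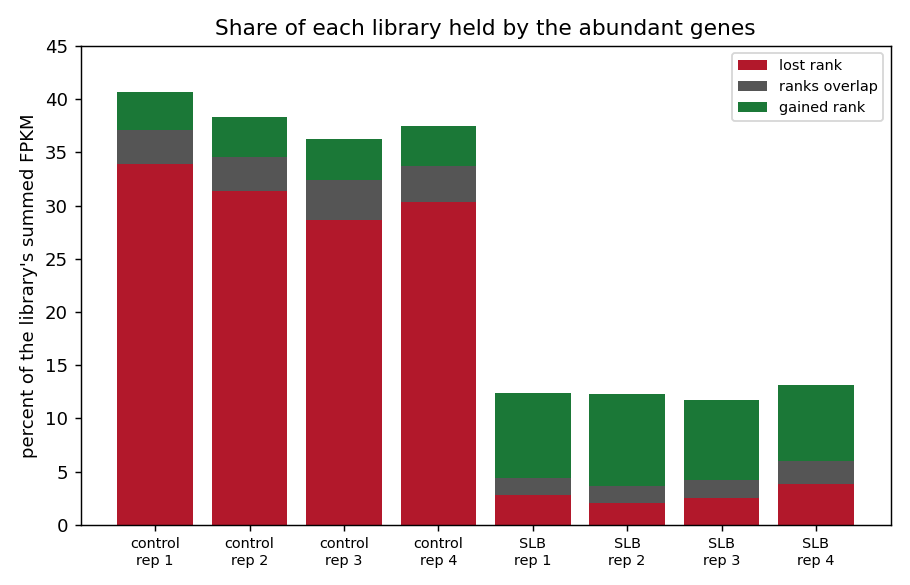
Percent of each library's summed FPKM (vertical axis, from 0) held by the 65 genes, stacked by those that lost rank, kept rank and gained rank; each bar is 1 library. Control bars reach 36.2% to 40.7% and are mostly genes that lost rank, and SLB bars reach 11.7% to 13.2% and are mostly genes that gained rank.

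The order of the 65 genes was more alike among controls than among SLB libraries. Across these genes, which are not independent replicates, Spearman's rho between FPKM values was 0.958 to 0.985 between controls and 0.783 to 0.961 between SLB libraries. The genes also spanned a narrower range in SLB libraries, the highest at 19.7 to 46.3 times the lowest, against 140 to 299 times in controls. Whether this bears on rho was not tested. Between the groups rho was 0.0662 to 0.552, over genes that the cut-off chose by these same levels. How far the cut-off bears on rho was not tested. SLB replicate 4 lay nearest to controls, with rho of 0.512 to 0.552, and SLB replicate 2 farthest, with 0.0662 to 0.084. SLB replicates 1 and 3 were in between, at 0.216 to 0.244 and 0.105 to 0.144. The same order of the extremes was seen in the genes that lost rank: SLB replicate 4 was the highest SLB library in 17 of the 20, and SLB replicate 2 was the lowest in 17 of the 20. They held 2.76%, 2.04%, 2.55% and 3.84% of SLB replicates 1 to 4. The 252 genes abundant in controls only, which share no member with the set, held 5.38%, 4.97%, 5.24% and 7.81% of these libraries. The 84 genes abundant in SLB libraries only held 20.1%, 20.6%, 18.7% and 14.4%. SLB replicate 4 had the most extreme of the 4 values in each of these 3 shares. They are parts of the same library sums, and the levels of these same libraries chose the genes. The 3 shares are therefore not independent, and they are a description.

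Among controls, replicate 1 was the highest library in 42 of the 65 genes and replicate 3 the lowest in 42. These 2 libraries also had the highest and the lowest summed FPKM. Their median-ratio factors, taken over the genes detected in every library, ran the other way, at 0.678 and 0.891. Their composition differed too: the genes that lost rank held 33.9% of replicate 1 and 28.7% of replicate 3, and the 16 genes with overlapping FPKM held 1.00% and 1.44%. The coefficient of variation over 4 libraries had a median of 20.6% in controls and 17.4% in SLB libraries, against 25.4% and 16.1% over all genes tested. In SLB libraries it was 27.3% for the genes that lost rank, 21.2% for those that kept it and 12.9% for those that gained it, as medians. In controls the same medians were 23.0%, 21.4% and 20.1%. The most even gene among controls, at control rank 308, had 523, 492, 521 and 497 FPKM. It had 702, 580, 775 and 631 FPKM in SLB libraries.

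In a part of the genes, SLB replicates 1 and 3 parted from replicates 2 and 4. Both of the first stood above both of the second in 14 genes, and both stood below in 8. The same counts were not made over all tested genes or for other splits of the SLB libraries. Nothing is therefore read from them. Control rank 298 had 965, 551, 894 and 459 FPKM in SLB replicates 1 to 4 and 433, 742, 548 and 397 FPKM in controls. Control rank 305 had 932, 502, 911 and 497 FPKM in SLB libraries and 516, 586, 531 and 424 FPKM in controls. Control rank 70 showed the opposite pattern, as given above. The labels name no batch that separates these libraries.

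**Figure D4:**
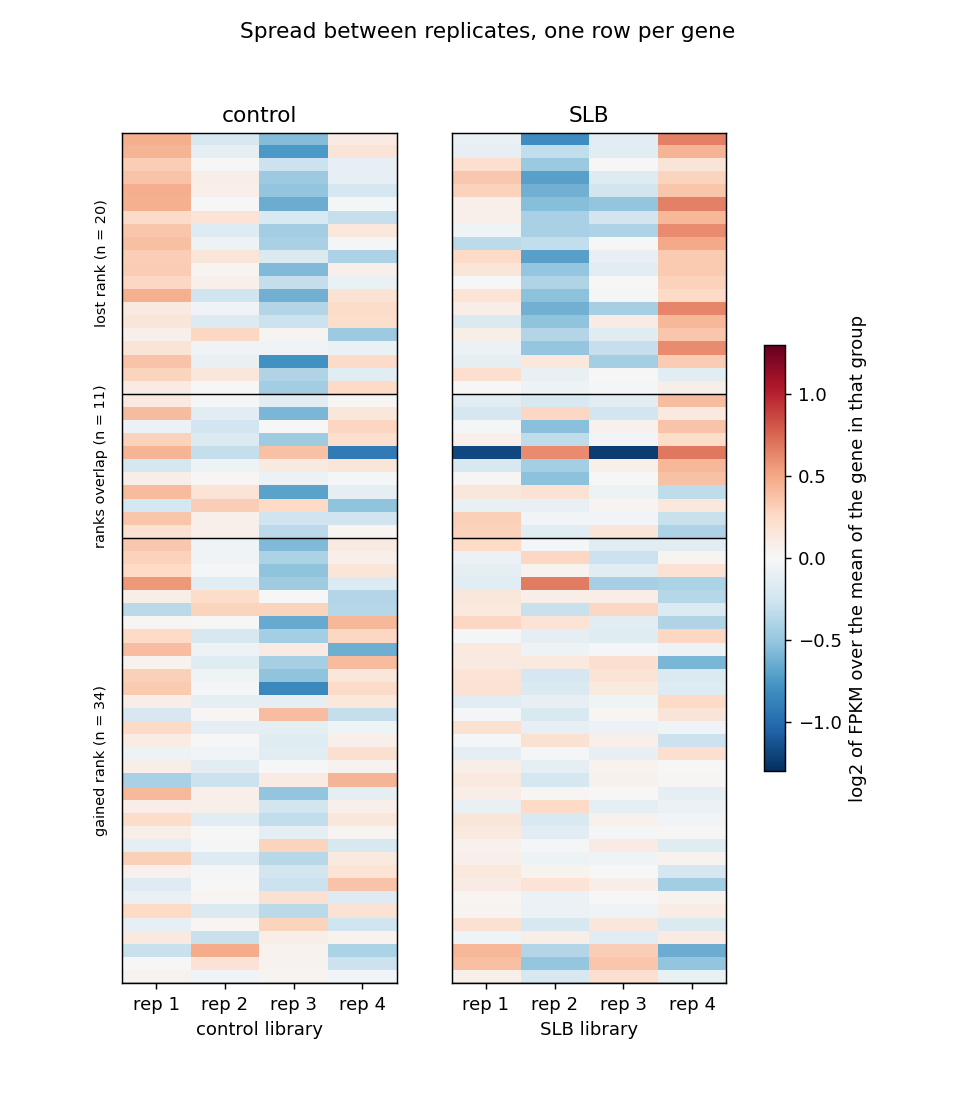
Each row is 1 of the 65 genes and each column 1 library; colour gives log2 of a value over the gene's mean in its own group, red for higher. Among the genes that lost rank, SLB replicate 4 is mostly red and SLB replicate 2 mostly blue, and control replicate 1 is mostly red and replicate 3 mostly blue.

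In limma's fit over 19407 genes, all 65 genes were tested, since each lay above the filter in both groups. At an adjusted p threshold of 0.05, 8 of them were called higher in SLB libraries and 41 lower, and 16 were not called. Of all tested genes, 56.0% were called higher and 24.6% lower. The FPKM of the groups did not overlap with SLB libraries higher in 8 of the 65 genes and lower in 41, against 53.3% and 22.2% of all tested genes. The control mean was at least 8 times the SLB mean in 18 of the 65 genes and at least 2 times in 35, where 7.04% and 20.5% of tested genes reached this. The SLB mean was at least 2 times the control mean in 5 of the 65, against 46.2%. Nothing is read from these comparisons, because the same levels chose the genes. The median log2 fold change was -1.05 over the 65 genes (quartiles -3.60 and -0.14) and 0.69 over all tested genes.

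Directions in FPKM moved with the scale, and 25 of the 65 genes were called in opposite directions by different scalings. The same count was not made over all tested genes, so it is not read as particular to the 65. With median-ratio scaling, 1 of the 65 genes rose and 56 fell, where 39.2% of all tested genes rose and 39.7% fell. With equal totals, 28 rose and 30 fell, against 75.6% and 11.4% of tested genes. With quantile normalization 34 rose and 21 fell, against 42.2% and 35.4%. As with the deposited values, nothing is read from these differences. Over the deposited values and these 3 scalings, 21 genes fell in all 4, which included all 20 that lost rank, and 1 rose in all 4. The matching shares of all tested genes were not computed, and the rank classes come from the same values. Nothing is read from these counts either. Relative to the median of all tested genes, 59 of the 65 lay lower with the deposited values, 59 with median-ratio scaling, 55 with equal totals and 26 with quantile normalization. The median change of rank over the 65 genes, with negative values for a gain, was -26 places. It was -14.9 places without SLB replicate 1, -39.9 without SLB replicate 4 and -16.1 without control replicate 4.

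Genes lay near the cut-off on both sides of it in both groups. The 3 genes just inside it in controls had means of 508, 514 and 530 FPKM, and the 3 just outside, which passed in SLB libraries, had 471, 470 and 467 FPKM. On the SLB side the 3 genes just inside had 514, 517 and 524 FPKM and the 3 just outside 497, 493 and 492 FPKM. Of the 65 genes, 43 lay at 500 FPKM or more in every library, and 22 fell below it in 1 to 3 libraries, down to 279 FPKM. Leaving out 1 library at a time gave 63 to 70 genes, with at most 5 of the 65 dropping out. The gene nearest the cut-off on the SLB side, at control rank 214, had 923, 715, 630 and 866 FPKM in controls. It had 574, 448, 535 and 500 FPKM in SLB libraries. The next, at control rank 90, had 2723, 2581, 2420 and 2504 FPKM in controls and 523, 356, 515 and 675 FPKM in SLB libraries.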

How the data were processed

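Messenger RNA of 8 maize leaf libraries was sequenced with a stranded kit, per the labels' protocols. Values were used as FPKM, in 1 table that the authors deposited with a column for each library. Trimmomatic 0.32 and the genome build B73 RefGen_v4 are named in the submitters' processing notes. Which aligner and quantifier were used, and whether libraries were scaled to each other, is not given in the sources used here. Depth is unknown. Columns were assigned to samples by their names.

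Genes at 1 FPKM or more in 4 or more libraries (19407) were fitted as log2(FPKM + 1) with limma 3.58.1 in R 4.3.3 (groups only, trend, two-sided, Benjamini-Hochberg). Ranks, shares and counts were computed in Python 3.11.15. Genes described singly were, by rule, the highest in each group, those with the largest and smallest changes of rank and those next to the cut-off; exceptions are named. The 14 gene lists by product had no members, since no identifier matched. Genes, lists and tests were chosen with earlier results of these data known. Alternatives were other scalings, cut-offs, filters and pseudocounts, a block on replicate number, and each library left out in turn. Same-numbered libraries were not treated as pairs.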

Additional observations from a re-analysis of the deposited data

Results flagged for a closer look

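In 9 of 144 groups of 4 values checked (each of the 65 genes and 7 library measures, in both groups), 1 library stood far from the other 3. Chance gives about 1 in 20, so 9 is near the number that chance gives, and no flag is read as a result. Of the 9, 5 were in SLB replicate 4. In SLB libraries the genes that kept their rank held 2.19% of replicate 4 and 1.62% to 1.67% of the others, and the gene at control rank 22 had 3315 FPKM in replicate 4 and 2165 to 2278 in the others. In the same library the gene at control rank 122 had 915 FPKM against 695 to 730, the gene at control rank 109 had 869 FPKM against 1426 to 1522, and the gene at control rank 78 had 2152 FPKM against 2949 to 3084. SLB replicate 2 had 862 FPKM of the gene at control rank 206, where the other SLB libraries had 663 to 682, and 2.27% of its summed FPKM in its highest gene of the set, against 1.05% to 1.24%. The gene at control rank 125 had 1065 FPKM in SLB replicate 1 and 861 to 895 in the others. Control replicate 3 had 690 FPKM of the gene at control rank 206, against 849 to 864. The checks share libraries and are not independent, and the gene at control rank 22 is itself 1 of the genes that kept their rank.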

How the results depend on the processing

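Of 144 values over 10 results and 22 settings, 116 stayed within the spread of the reported value or within 1.5 times the reported count. The rule among the 200 highest genes was added after the data were seen. Without 1 library, 63 to 70 genes passed, holding 34.1% to 40.8% of controls and 12.0% to 12.8% of SLB libraries; the median change of rank was -39.9 to -14.9 places, the median log2 fold change -1.20 to -0.93, and limma called 15142 to 15780 genes in all, against 15636. A cut-off of 250 or 1000 FPKM gave 178 or 25 genes, with a median change of rank of -15.8 or -31.8. With the rule applied to equal totals, 75 genes passed (50 of the 65), holding 48.0% of controls; 49.3% lost and 26.7% gained rank, and the median change turned to 30.5 places downward. With median-ratio scaling, 47 passed (44 of the 65), holding 29.7% of controls and 11.5% of SLB libraries; 66.0% gained rank, the median change was -61.2 places, 4.26% rose and 74.5% fell (39.2% and 39.7% of all tested genes), and the median log2 fold change was -1.45. With quantile normalization 52.3% of the 65 rose, 32.3% fell and the median log2 fold change turned to 0.70, against 42.2%, 35.4% and 0.12 over all tested genes. Among the 200 highest of both groups 32.8% gained rank and the median change turned to 7.5 places. Each of these settings rescales the libraries or changes who passes the rule. Deviations of replicates 1 to 4 from their group means correlated between the groups at 0.0485, 0.0152, 0.126 and 0.112, so the numbers were not taken as pairs. Under a replicate block limma called 15616 genes, and 12.3% of the 65 rose and 61.5% fell. Depth is unknown.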

Other observations

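In 2 places a pair of the 65 genes had identifier numbers at most 10 apart. The pair 4 numbers apart had control means 1.52 and 2.06 times the SLB means, and both gained rank. The pair 9 numbers apart had ratios of 1.12 and 4.94, and the first gained rank while the second kept it. Whether identifier numbers follow gene order was not checked.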
